A study of Mus musculus with 9 samples.

Results

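The class I odorant receptors were taken here as the receptor genes numbered Olfr543 to Olfr690, and their transcripts were measured in mouse olfactory mucosa after dexamethasone. A gene was a member when a probe of the deposited table carried an annotated symbol made of Olfr and a number in that range, and the brighter probe over all arrays stood for a gene with more than 1. The rule found 78 genes on 80 probes, out of 23631 features in all, and RefSeq lists 116 genes in the number range. The members were set beside 465 other odorant receptor genes and 18447 named genes that encode no chemosensory receptor.

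The 27 mice were wild-type C57BL/6 males aged 6 to 8 weeks, 9 to a group. Controls were injected with saline over 2 weeks. Mice called D1 had dexamethasone for 1 day, and mice called WK2 had it daily over 2 weeks. The labels give the dose, 1 mg/kg into the peritoneum, beside the daily injections. Dexamethasone is a synthetic glucocorticoid. There was no group given saline for 1 day, so the D1 group differed from control in the agent and in the length of the injections. Of each group, 3 samples with optimal olfactory marker protein (Omp) expression were selected for arrays, so the 9 arrays are not a random draw of the mice. The labels do not say whether a sample was 1 animal or several, and the p-values measure the spread between these samples only.

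In the nose, each mature olfactory neuron normally transcribes 1 odorant receptor gene, and the total of a receptor's transcript in the mucosa follows both the number of neurons that chose it and the RNA in each of them. Class I receptors resemble the receptors of fish, lie in a single cluster in the mouse genome, are chosen mostly in the dorsal zone of the epithelium and include receptors for carboxylic acids. A long-range enhancer in the cluster, the J element, acts on many of these genes. In whole mucosa, more neurons with a receptor and more RNA per neuron cannot be told apart.

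The RefSeq annotation of GRCm38.p6 places all 78 members on chromosome 7. It also places 9 receptor genes with other numbers between them, of which 6 were measured, namely Olfr64, Olfr65, Olfr66, Olfr67, Olfr69 and Olfr78. These 6 are counted here with the other odorant receptors, since the number range defined the members. That set also holds Olfr691 and Olfr692, and so is not free of class I genes.

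Sequences upstream of the annotated starts are shown for members whose WK2 mean exceeded control by more than 1 on the log2 scale, because homeodomain factors such as Lhx2 and Emx2 take part in receptor gene transcription and bind cores such as TAATNA. RefSeq's table held a window of 250 bases before and 50 after the start for 66 of the 78 members. In 45 of these 66 windows the annotated start was an ATG, so the gene model began at the start codon, and only 30 bases around a match are printed for such genes. For the other models the 120 bases before the start are printed. Each line runs 5′ to 3′ on the strand of the gene, with every TAATNA match on either strand in capitals, in GRCm38.p6.
Olfr618, chr7:103597240-103597269, plus strand: tgataaaaaTAATCATTAatttttataatt
Olfr606, chr7:103451184-103451213, plus strand: tggcgaaaggagTTATTAgaggtcagcact
Olfr663, chr7:104703539-104703568, plus strand: aagcaggcattattTTATTATTAgcaagag
Olfr686, chr7:105204404-105204433, minus strand: aacctgactttcTAATAAtctgcactcatt
Olfr623, chr7:103661319-103661438, minus strand: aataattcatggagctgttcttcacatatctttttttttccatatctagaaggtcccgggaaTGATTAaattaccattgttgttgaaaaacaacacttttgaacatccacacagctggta
Olfr630, chr7:103757351-103757470, minus strand: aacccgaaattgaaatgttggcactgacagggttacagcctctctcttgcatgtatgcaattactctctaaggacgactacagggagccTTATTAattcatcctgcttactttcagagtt
The Olfr618 and Olfr663 pieces each held 2 overlapping matches and the other pieces 1.

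Of the 10 members past 1 on the log2 scale, 9 had a window and 6 of those had TAATNA in the 250 bases before the start. Over the whole window of 300 bases, TAATNA occurred in 44 of 66 members (66.7%), in 65.8% of 878 windows of all other odorant receptor genes in the table, measured or not, and in 26.5% of all 32851 windows. Among the 29 members with a window whose WK2 arrays all lay above all control arrays it occurred in 21 (72.4%). The share in the members was close to that in the other receptors. The core CCCNNGGG, bound by the Ebf family of olfactory neuron factors, was found in 3 of the 66 members (4.55%), in 2.96% of the other receptors and in 13.7% of all windows. A loose form of the glucocorticoid receptor's palindrome, ACANNNTGT, was found in 5 members (7.58%), in 12.9% of the other receptors and in 6.85% of all windows. It occurred in 1 of the 29 members whose WK2 arrays lay above control (3.45%). A match of letters is a description and not a bound site.

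One member with that palindrome was Olfr558, a receptor for short-chain fatty acids that is also transcribed in smooth muscle of blood vessels. Its RefSeq model begins upstream of the start codon, and the match is in capitals below.
Olfr558, chr7:102702203-102702322, plus strand: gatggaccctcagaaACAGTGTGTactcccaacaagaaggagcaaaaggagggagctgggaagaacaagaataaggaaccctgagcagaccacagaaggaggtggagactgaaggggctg
Olfr558 read 1594, 847 and 1462 in the control arrays, 955, 1619 and 1236 in D1, and 1475, 1894 and 1831 in WK2, in intensity units. The groups overlapped, and the WK2 mean was 0.44 ± 0.26 (SE, n = 3 and 3) above control on the log2 scale, adjusted p = 0.265 by limma. The difference of Olfr558 was 0.17 without control replicate 2 and 0.13 with array weights.

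Intensities are the authors' linear, scaled array values, and differences are those of log2(intensity + 50), which understates changes of dim probes. The 26423 probes had array medians between 1202 and 1447, and arrays of 1 group correlated at r = 0.977 to 0.993 over all features. The members were dim beside other genes, with a median control intensity of 468, against 576 for the other receptors and 2567 for the non-receptor genes. By control mean, 12 members lay under 100, 48 from 100 to 1000 and 18 over 1000. Probes differ in how well they bind, so this order does not rank the receptors by abundance. The precision is limited by the 3 arrays in each group.

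After 1 day of dexamethasone no class I receptor passed the test. The median difference of the 78 members was 0.07, against 0.03 over all features and -0.05 for the other receptors. Above 0 lay 50 members (64.1%), beside 56.6% of all features and 41.3% of the other receptors. At an adjusted p under 0.05, limma called 0 members and 0% of all features, and at an unadjusted p under 0.05 it called 2 members beside 2.01% of features. Every D1 array lay above every control array for 3 members (3.85%), beside 4.92% of features, and every D1 array lay below for 0 members, beside 5.19% of features. The upward count was near that background, and no member lay below control without overlap, where the other receptors gave 5.16%.

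The 3 members whose D1 arrays all lay above control were Olfr616, Olfr592 and Olfr648. Olfr616 read 123, 208 and 91 in control, 255, 269 and 233 in D1, and 154, 80 and 85 in WK2. Its D1 arrays stood above both other groups without overlap. The D1 mean of Olfr616 was 0.71 ± 0.24 (SE) above control with an unadjusted p of 0.0154 and an adjusted p of 1 by limma, and it was the single member whose WK2 arrays all lay below D1. Olfr648 read 1128, 449 and 1269 in control, 1613, 1295 and 1417 in D1, and 1272, 2050 and 1811 in WK2. The lowest D1 array of Olfr648 was only just above the highest control array, and the difference was 0.69 ± 0.33 (SE) with an adjusted p of 1 by limma. Without control replicate 2 the difference of Olfr648 was 0.25, and with array weights 0.29. The difference of Olfr616 was 0.24 with a pseudocount of 500.

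After 2 weeks of dexamethasone 71 of the 78 members (91%) had a higher mean than in control, beside 62.7% of all features and 78.7% of the other receptors. The median difference of the members was 0.41 on the log2 scale. The median was 0.14 over all features, 0.26 over the 465 other receptors and 0.16 over non-receptor genes of like intensity, which left the members 0.24 above genes as bright. The lower and upper quartiles of the members were 0.19 and 0.63. Every WK2 array lay above every control array for 33 members (42.3%), beside 23.8% of all features and 24.3% of the other receptors. Every WK2 array lay below for 0 members, beside 13.8% of features.

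Single members rarely passed the test. At an adjusted p under 0.05, limma called 1 member, Olfr592, beside 1.6% of all features and 4 of the 465 other receptors. At an unadjusted p under 0.05 it called 23 members (29.5%), beside 29.8% of features, so by that rule the members were at the background. The members' median shift changed with the scaling of the arrays. It was 0.18 after quantile normalization and 0.22 after cyclic loess, where the medians over all features were 0.01 and 0.03. Under each of these, 60 of the 78 members were above 0. The count of members without overlap fell to 18 of 78 (23.1%) after quantile normalization, beside 14.8% of features. The median was 0.27 without control replicate 2. The count without overlap was 50 of 78 without WK2 replicate 2, beside 32% of features.

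**Figure D1:**
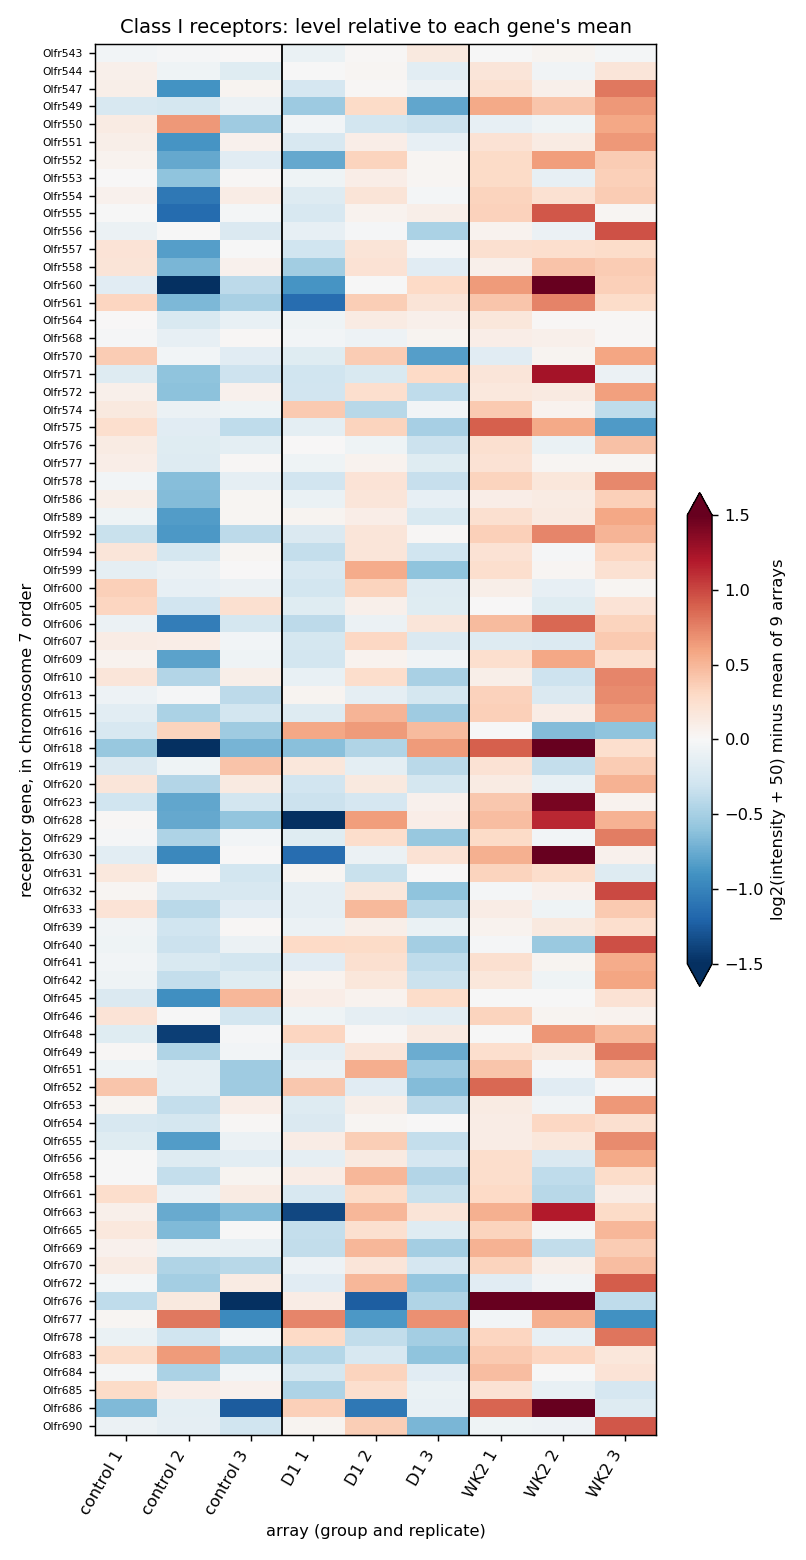
Log2(intensity + 50) of each of the 78 class I members on each of the 9 arrays, minus the gene's mean of 9 arrays, with genes in chromosome 7 order and red for higher. The WK2 columns are mostly red and the second control array mostly blue, and a few genes are far redder on the second WK2 array than on the others.

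Olfr592 was the 1 class I receptor past the test in WK2 against control, 1.28% of members beside 1.6% of all features. Olfr592 read 1148, 787 and 1106 in control, 1251, 1669 and 1480 in D1, and 1898, 2476 and 2101 in WK2. The 3 groups did not overlap, with D1 between control and WK2. The WK2 mean of 2158 ± 293 (SD, n = 3) was 2.09-fold the control mean of 1014 ± 197 on the log2(intensity + 50) scale, a log2 difference of 1.06 ± 0.19 (SE) with an adjusted p of 0.0416 by limma. The difference kept its direction under all 22 alternatives run, but the adjusted p rose above 0.05 when any array other than WK2 replicate 1 was left out, where it ran from 0.0641 to 0.148. By limma it was also 0.104 with a replicate block and 0.111 with only the 2 groups in the fit. The D1 mean was 0.52 ± 0.19 (SE) above control, adjusted p = 1 by limma.

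Olfr618 had the largest difference of the 78 members and did not pass the test as fitted. It read 881, 416 and 801 in control, 839, 959 and 2088 in D1, and 2512, 5865 and 1591 in WK2. WK2 lay above control without overlap but reached down into D1. The difference from control was 2.02 ± 0.48 (SE), adjusted p = 0.0578 by limma. Olfr618 passed after quantile normalization (adjusted p = 0.0481), after median centring (0.0426), without the dimmest 25% of features (0.0492) and with array weights (0.0258), and leaving out 1 array gave 0.0656 to 0.148. The third D1 array was the highest of its group for Olfr618, and the second WK2 array was the highest of all 9.

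Olfr606 and Olfr560, both among the 10 brightest class I probes in control, gave the same kind of picture. Olfr606 read 1856, 934 and 1638 in control, 1491, 1854 and 2250 in D1, and 2754, 3636 and 2495 in WK2, a difference of 1.02 ± 0.27 (SE) with an adjusted p of 0.0639 by limma. Olfr560 read 1993, 673 and 1701 in control, 1192, 2247 and 2779 in D1, and 3532, 8092 and 2897 in WK2, a difference of 1.68 ± 0.48 (SE) with an adjusted p of 0.0731 by limma. For both genes every WK2 array exceeded every control and every D1 array, and the lowest array was the second control. Olfr606 passed after quantile normalization (adjusted p = 0.0448), after median centring (0.0485) and with array weights (0.0327), and Olfr560 passed with array weights (0.0474).

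**Figure D2:**
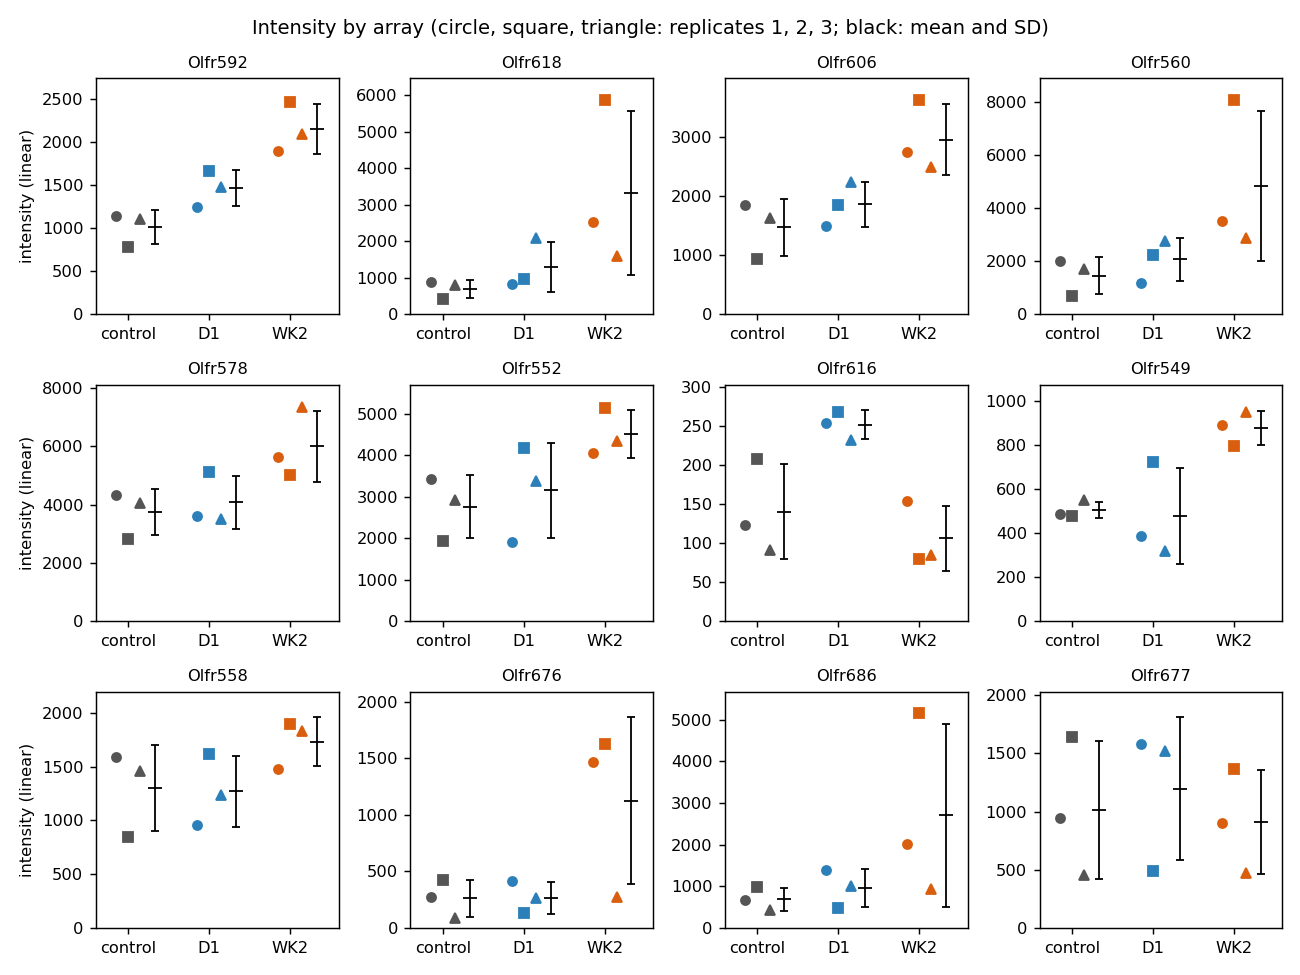
Linear intensity of 12 class I receptors on each array, with a circle, square and triangle for replicates 1, 2 and 3 and the mean ± SD of 3 arrays in black. Olfr592 climbs from control through D1 to WK2 without overlap, Olfr616 is highest in D1, and the high WK2 means of Olfr618, Olfr560 and Olfr686 rest largely on the square, the second array.

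The other brightest class I probes lay above control in WK2 by smaller amounts. Olfr578 read 4328, 2837 and 4056 in control and 5636, 5019 and 7367 in WK2, which do not overlap, a difference of 0.68 ± 0.23 (SE) with an adjusted p of 0.0944 by limma. Olfr552 read 3430, 1925 and 2931 in control and 4051, 5149 and 4338 in WK2, also without overlap. Its difference was 0.73 ± 0.29 (SE), adjusted p = 0.136 by limma. Olfr557, Olfr554 and Olfr571 likewise had all WK2 arrays above control, with differences of 0.47, 0.62 and 0.82. Olfr547, Olfr665 and Olfr672 overlapped, with differences of 0.61, 0.44 and 0.37. Much of these differences rested on the second control array, the lowest of the 9 for many members. Without control replicate 2, Olfr557 was at 0.16, Olfr554 at 0.23, Olfr547 at 0.30, Olfr665 at 0.20 and Olfr672 at 0.18, and with array weights Olfr557 was at 0.21, Olfr554 at 0.28 and Olfr547 and Olfr665 both at 0.22. Olfr578 was at 0.44 with array weights. Single WK2 arrays mattered too, since Olfr571 was at 0.42 without WK2 replicate 2, and Olfr547 and Olfr672 were at 0.40 and 0.03 without WK2 replicate 3. The value of Olfr672 turned to -0.07 with array weights and to -0.16 without control replicate 2 and WK2 replicate 3.

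The dimmest class I probes gave small differences, from 0.03 to 0.19 in WK2. Olfr568 read 17 to 24 in control and 24 to 28 in WK2, Olfr564 read 23 to 36 and 37 to 46, Olfr631 read 19 to 43 and 23 to 55, and Olfr619 read 24 to 66 and 17 to 62. Whether these signals exceeded background is not given in the files used here. Olfr544, a receptor for azelaic acid, read 240, 213 and 193 in control, 225, 231 and 198 in D1, and 264, 215 and 262 in WK2. Its groups overlapped, with a difference of 0.16 ± 0.14 (SE) and an adjusted p of 0.437 by limma, and its sign turned under quantile normalization and cyclic loess.

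The median shift of the class I receptors in WK2 was larger among brighter probes, with brightness taken over all arrays, WK2 included. When the features were split at the quartiles of the members' mean signal, the 20 brightest members, with intensities from 1070 to 4440, had a median difference of 0.71. Non-receptor genes of that brightness had a median of 0.01 and other receptors 0.36. All WK2 arrays lay above control for 14 of these 20 members (70%), beside 19.7% of the non-receptor genes and 33.6% of the other receptors. The 20 dimmest members, from 22.8 to 160, had a median of 0.17 beside 0.20 for non-receptor genes, and 5 of them (25%) lay above control without overlap beside 33.7%. The bins in between had medians of 0.37 and 0.37, beside 0.25 and 0.19. For the brightest bin the members' median was 0.61 to 0.76 under the 3 other scalings and 0.48 to 0.85 when 1 control or WK2 array was left out, the lowest without control replicate 2, where the non-receptor genes were at 0 and the other receptors at 0.26. After 1 day the brightest bin had a median of 0.20 beside 0.01. Neither contrast between brightness classes was tested. Because brightness took in the WK2 arrays, a member high in WK2 could enter the brightest bin through them. Olfr618, Olfr686 and Olfr648, with WK2 differences of 2.02, 1.65 and 0.91, were in that bin but ranked 29, 31 and 21 by control mean. Olfr677, Olfr570 and Olfr683, at -0.09, 0.1 and 0.17, ranked 17, 18 and 20 by control mean but fell below that bin. The trend was not tested with bins by control mean alone.

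**Figure D3:**
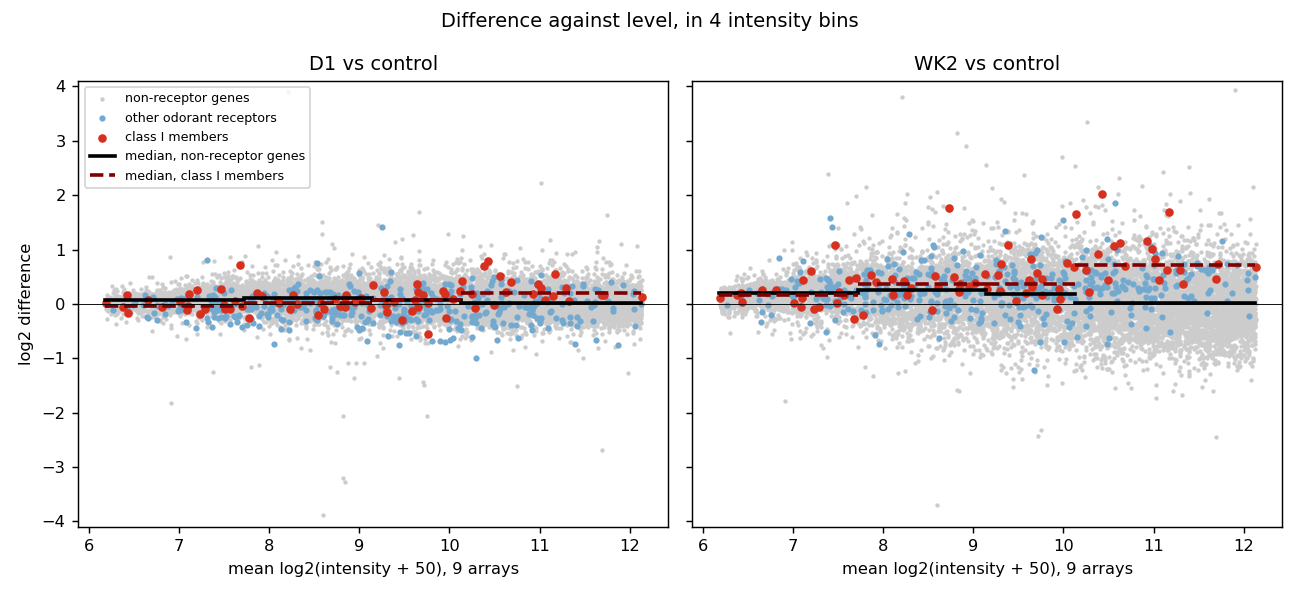
Log2 difference from control in D1 (left) and WK2 (right) against the mean log2(intensity + 50) of 9 arrays, for members in red, other odorant receptors in blue and non-receptor genes in grey, with medians of members (dashed) and non-receptor genes (black) in 4 intensity bins. In WK2 the dashed line rises to 0.71 in the brightest bin while the black line lies at 0.01.

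The high values in WK2 came from different arrays for different class I receptors. The members' median log2 signal was 9.06, 8.71 and 8.94 on the control arrays, 8.83, 9.15 and 8.71 on D1 and 9.37, 9.30 and 9.52 on WK2, so the groups did not overlap in WK2 against control. The third WK2 array was the highest of the 9 for 34 members (43.6%), beside 31% of features and 52.3% of the other receptors. The second WK2 array was the highest for 18 members (23.1%), beside 16.1% of features and 8.6% of the other receptors. The second control array was the lowest for 32 members, beside 32.3% of features. The 18 members highest on the second WK2 array had a median difference from control of 1.04, with 14 without overlap. The 34 highest on the third had 0.44, also with 14 without overlap. These members were sorted by the same values, so a raised WK2 mean is built into both groups, and no like share of features was taken. The 10 members past 1 on the log2 scale, Olfr560, Olfr592, Olfr606, Olfr618, Olfr623, Olfr628, Olfr630, Olfr663, Olfr676 and Olfr686, were all highest on the second WK2 array. That profile was not particular to receptors. Tigd4, which encodes no chemosensory receptor, read 214, 114 and 132 in control and 1276, 4343 and 517 in WK2. Pvr, another such gene, read 7070, 5748 and 6453 in control and 11189, 18069 and 8337 in WK2.

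The 3 class I receptors with the largest spread within groups were Olfr676, Olfr686 and Olfr677. Olfr676 read 275, 419 and 88 in control, 410, 130 and 261 in D1, and 1470, 1622 and 275 in WK2. Only the first and second WK2 arrays were high, the third lay within the control range, and the difference of 1.76 ± 0.65 (SE) had an adjusted p of 0.115 by limma. Olfr686 read 661, 972 and 424 in control, 1400, 487 and 996 in D1, and 2017, 5146 and 933 in WK2, a difference of 1.65 ± 0.57 (SE) with an adjusted p of 0.101 by limma. Without WK2 replicate 2 the difference of Olfr686 was 1.02. With array weights Olfr676 was at 2.70 and Olfr686 at 2.12, and both passed, with adjusted p of 0.0192 and 0.0229 by limma. Olfr677 read 946, 1638 and 453 in control, 1580, 486 and 1519 in D1, and 902, 1366 and 471 in WK2, and its groups overlapped throughout, at -0.09 ± 0.55 (SE) and an adjusted p of 0.921 by limma.

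Between the dexamethasone groups, WK2 lay above D1 by a median of 0.33 for the class I members, against 0.32 for the other receptors, 0.10 for all features and 0.10 for non-receptor genes of like intensity. This comparison shares the WK2 arrays with that against control, and the 2 comparisons with control share the control arrays. Limma called 0 members at an adjusted p under 0.05, beside 0.0931% of features, and 12 at an unadjusted p under 0.05, beside 19.2% of features. All WK2 arrays lay above D1 for 13 members (16.7%), beside 18.7% of features and 27.5% of the other receptors, and all lay below for 1, Olfr616, beside 12.6% of features. By these counts the members did not exceed the background. Olfr549 read 385, 726 and 320 in D1 and 893, 795 and 950 in WK2, without overlap, and 489, 478 and 549 in control. Its WK2 mean was 0.89 ± 0.24 (SE) above D1 with an adjusted p of 0.148 by limma, and 0.52 above with a pseudocount of 500. Olfr683 was low in D1, at 592, 685 and 518, against 1085, 1036 and 927 in WK2 and 999, 1297 and 554 in control, and differed by 0.72 ± 0.26 (SE) with an adjusted p of 0.201 by limma, and by 0.47 with a pseudocount of 500.

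**Figure D4:**
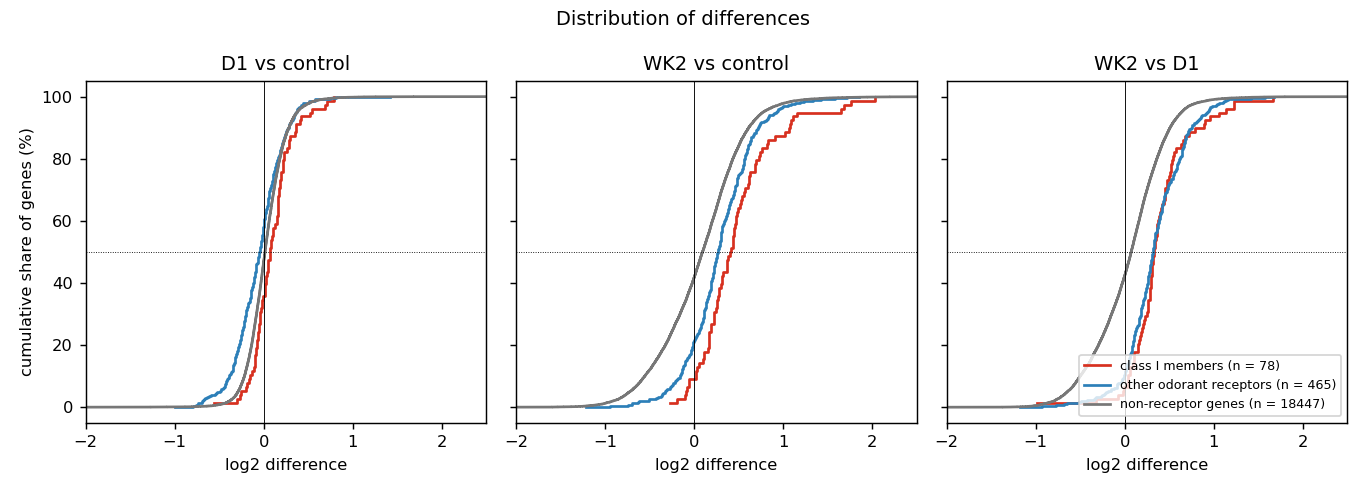
Cumulative share of genes (%) against the log2 difference for the 78 class I members, 465 other odorant receptors and 18447 non-receptor genes in each comparison. In WK2 against control the members' curve lies farthest right, with its middle at 0.41, and in WK2 against D1 it runs with that of the other receptors.

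The shift in WK2 was described along the cluster. In 6 successive blocks of 13 members along chromosome 7, the median differences from control were 0.47, 0.30, 0.24, 0.46, 0.32 and 0.43. Of the 13 in each block, 6, 7, 6, 6, 5 and 3 members lay above control without overlap, beside 23.8% of all features. The last block, with 3 of 13, was near that share. The differences between blocks were not tested. RefSeq places 59 genes that encode no odorant receptor among the members, of which 14 were measured. Of these 14, 13 had a higher mean in WK2, beside 62.7% of all features, with a median of 0.32, and 0 passed the test. That median was 0.13 after quantile normalization and 0.18 after cyclic loess. Ubqlnl, a ubiquilin-like gene in the cluster, had the smallest adjusted p, with 2287, 736 and 2672 in control and 3354, 4453 and 2989 in WK2, a difference of 1.07 ± 0.39 (SE) and an adjusted p of 0.115 by limma. The listed and measured class I genes with numbers outside the range gave 0.48 for Olfr78, 0.61 for Olfr691 and 0.17 for Olfr692, with none past the test. Olfr78 is a receptor for short-chain fatty acids found in the carotid body. Values of Olfr64, Olfr65, Olfr66, Olfr67 and Olfr69, also measured within the cluster, are not given here.

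A second probe existed for Olfr551 and Olfr628. For Olfr551 the dimmer probe gave 0.73 and the brighter 0.57 in WK2 against control, and for Olfr628 the dimmer gave 0.65 and the brighter 1.15. The sign was the same for both genes, while the size differed. The dimmer Olfr628 probe was highest on the third WK2 array, at 1349, and the brighter on the second, at 4210.

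The genes listed for receptor gene choice and for bringing receptors to the membrane had mostly, but not all, lower means in WK2. Of 22 listed genes, 19 were measured, 12 had a lower mean in WK2 and 7 a higher one, with a median of -0.58 against 0.14 over all features (-0.57 after quantile normalization), and 0 passed the test in either direction. Ebf4, of the Ebf family, was at -0.91 and Reep1, which helps receptors to the cell surface, at -0.72, each with an adjusted p of 0.0551 by limma. The 7 with a higher mean included Lbr at 0.55, Ric8b at 0.32, and Rtp1 and Rtp2, both at 0.13. The homeodomain factor Emx2 was at -0.87 with an adjusted p of 0.0604 and Ldb1, the partner of Lhx2 at receptor enhancers, at -0.68 with an adjusted p of 0.0614 by limma. Lhx2 itself read 48794, 54167 and 46286 in control and 38932, 34101 and 27456 in WK2, without overlap, at -0.58 ± 0.17 (SE) and an adjusted p of 0.0737 by limma.

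Some markers of the neurons and of their neighbours also differed between control and WK2. Omp, the marker used to select samples, read 411529, 300267 and 300586 in control, 404390, 331835 and 490368 in D1, and 501267, 540038 and 478900 in WK2, a difference of 0.60 ± 0.19 (SE) with an adjusted p of 0.0852 by limma. All 10 listed mature neuron markers were measured, 6 had a higher mean in WK2, and 0 passed. Their median difference was 0.16, and -0.06 after quantile normalization. The summed intensity of the list ran from 1150000 to 1330000 in control, from 1020000 to 1400000 in D1 and from 1380000 to 1500000 in WK2. In the odour transduction list 18 of 20 genes were measured, 8 had a higher mean in WK2, the median was -0.04 and 0 passed.

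Of 8 immature neuron markers 7 had a lower mean in WK2 and 1 passed, Dpysl5, at -1.26 with an adjusted p of 0.0395 by limma, and the summed intensity was 316000 to 349000 in control and 257000 to 284000 in WK2. Of 4 sustentacular cell markers all had a higher mean, with 0 past the test and sums of 778000 to 1020000 in control and 1230000 to 1350000 in WK2. Of 5 basal cell markers 3 had a higher mean and Kit fell by 1.11, with an adjusted p of 0.0387 by limma, and the sums were 31100 to 33400 in control and 43500 to 45700 in WK2. Of 4 genes listed as vomeronasal markers 3 had a lower mean. Trpc2, the channel of vomeronasal neurons, fell by 1.24, with an adjusted p of 0.0492 by limma. Gnao1 and Gnai2, also lower, had control means of 81746 and 10943 against 1004.3 for Trpc2, and need not report that cell type. Smooth muscle markers had a median of 0 over 6 genes, respiratory ciliated cell markers 0.24 over 6, erythroid markers 0.36 over 3, neutrophil markers 0.24 over 7 and B lymphocyte markers 0.07 over 4, with 0 past the test in each of these lists. The second control array had the highest control sum of the neutrophil, erythroid and B lymphocyte lists. Single markers went the other way, since S100a8, Pax5 and Cd79a were lowest there among the control arrays. The summed neutrophil markers read 156000, 385000 and 203000 on control replicates 1 to 3, 281000, 637000 and 242000 in D1 and 434000, 388000 and 308000 in WK2. The erythroid sums were 103000, 231000 and 119000 in control, 201000, 249000 and 92600 in D1, and 313000, 149000 and 263000 in WK2. The B lymphocyte sum was the highest of the 9 arrays on control replicate 2, at 13100, against 7400 to 9930 on the other arrays. The neutrophil and erythroid sums were also high on the second D1 array, where the class I median was the highest of its group. Under quantile normalization, median centring and cyclic loess the signs of the list medians held for immature neurons, sustentacular, basal, vomeronasal, respiratory, erythroid and neutrophil markers, but the sustentacular median was 0.09 after quantile normalization and 0.30 after cyclic loess, against 0.51, and that of B lymphocytes turned to -0.03 with median centring and that of smooth muscle went to -0.24 with quantile normalization. The part of these shifts in the class I values was not tested.

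Markers of the dorsal zone, where class I receptors are mostly chosen, did not pass the test. Nqo1 was at 0.43, Acsm4 at 0.41 and Robo2 at 0.12 in WK2. Nrp2 and Ncam2, of ventral neurons, were at -0.38 and 0.01, and Sema3f, a repellent that dorsal neurons make for Nrp2-bearing axons, was at 0.09, and 0 of these 3 passed. Of 14 trace amine receptors, which are mostly dorsal too, 6 were measured, 5 had a higher mean and 0 passed, with a median of 0.37, which was 0.12 after quantile normalization and 0.16 after cyclic loess. Taar5, a receptor for trimethylamine, read 186, 148 and 186 in control, 190, 259 and 608 in D1, and 595, 1686 and 281 in WK2, highest on the second WK2 array as for Olfr618.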

How the data were processed

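RNA of olfactory mucosa was amplified from 1 µg, labelled with Cy5 and measured in 1 colour, with an integrity number of at least 7, per the labels' protocols. The authors deposited 1 table of linear probe intensity for 9 arrays. How it was background-corrected and scaled is not given in the sources used, and 8 to 18 values per array were below 0. GEO's platform annotation gave 1 symbol to 21876 of the 26423 probes and none to 4547, and symbols were updated through Entrez IDs with RefSeq's GRCm38.p6 table. The brightest probe of a gene by its mean over the 9 arrays was kept. Group means were contrasted in limma (version 3.58.1, under R 4.3.3), with moderated variances, on log2(intensity + 50) over all 9 arrays and all features, with Benjamini-Hochberg adjustment within a comparison and a threshold of 0.05. The fit was tested on simulated data. With 3 against 3 arrays an exact two-sided permutation test cannot go below p = 0.1. Genes were named by rule: the 10 brightest members, in each comparison up to 4 members on each side with the smallest p among those whose groups did not overlap, the 3 of largest spread, the 4 dimmest, and Olfr558 and Olfr544. A part of the rule on protein identity was not run. The members and gene lists were chosen with earlier results of these data known. Alternatives changed the scaling, the pseudocount, the probe filter, the model and the arrays included.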

Additional observations from a re-analysis of the deposited data

How the results depend on the processing

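In D1 against control and in WK2 against D1, 0 members passed the test under each of 22 alternatives, and the members' median ran from -0.06 to 0.16 and from 0.19 to 0.45. For WK2 against control the median ran from 0.16 to 0.52 and stayed above 0. It was 0.18 after quantile normalization, 0.22 after cyclic loess, 0.18 with a pseudocount of 500, and 0.16 without control replicate 2 and WK2 replicate 3 together. The excess over non-receptor genes of like intensity ran from 0.10 to 0.37. The 1 member past the test became 3 after quantile normalization, 3 after median centring, 2 without the dimmest 25% of features and 7 with array weights. Calls over all features also rose, from 379 to 1422 and 1544 under those 2 scalings. They were 616 without the dimmest 25% and 2748 with array weights. With only the 2 groups in the fit, 0 members and 0 features passed. The same held when either control replicate 2 and WK2 replicate 2 or control replicate 2 and WK2 replicate 3 were left out. Leaving out 1 array gave 0 to 1 members, beside 1 to 966 features. With a replicate block 0 members passed, beside 1 feature, and the adjusted p of Olfr592 was 0.104 by limma. Same-numbered arrays correlated at -0.28 to 0.13 over 9 pairs, and 2 of 9 arrays matched best with their number, so the numbers were not taken as pairs. The 33 members without overlap became 18 after quantile normalization, 20 after median centring and 20 after cyclic loess, beside 14.8%, 15.9% and 16.9% of features. They became 52 (66.7%) without control replicate 2 and WK2 replicate 2, beside 37.6% of features. When 1 array was left out they were 33 to 50 (42.3% to 64.1%), beside 23.8% to 32% of features. With fewer arrays any gene can more easily be free of overlap. These counts, both double omissions and the alternatives for the brightest probes were added after seeing the data. Of 547 values of named genes, 8 turned sign. Olfr544 went to -0.08 after quantile normalization and -0.04 after cyclic loess. Olfr672 went to -0.07 with array weights and -0.16 without control replicate 2 and WK2 replicate 3. Olfr677 went to 0.52 with array weights, 0.71 without control replicate 2 and WK2 replicate 3, and, when 1 array was left out, from -0.55 to 0.33, above 0 without control replicate 2 (0.33) or WK2 replicate 3 (0.30). The cause was not tested. The table holds no detection calls, so what the dim probes measure stays unknown.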
